A study of Mus musculus with 12 samples.

Results

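The genes described here handle fatty acids and cholesterol in macrophages. They are Scd1 and Scd2, which desaturate fatty acids, Fasn, which makes them, and Srebf1, the transcription factor that drives both steps. The other genes are Abca1 and Abcg1, which export cholesterol, Nr1h3, the oxysterol receptor LXRα, and Lpl and Cd36, which bring lipid into the cell. Of these 9 genes, 7 were matched by symbol to a probe set, 1 each, among the 22206 probe sets tested, and Scd2 and Srebf1 were not analysed here. Where a gene has several probe sets the brightest over all arrays was to be used, a choice that never arose.

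RNA came from alveolar macrophages of male C57 Black mice, taken from the lung with magnetic beads carrying an antibody to Siglec-F, a surface lectin of these cells and of eosinophils. There were 4 groups of 3 biological replicates: mice with an intact liver, and mice at day 1, day 3 and day 7 after surgery that took out 70% of it. Every replicate was measured on 1 Clariom S mouse array, 12 arrays in all. The sources used here give no sham operation, no age and no number of animals per replicate, so the spread between replicates is that of these samples and may include pooled animals. All values are RMA signals on the log2 scale, and a difference of 1 is a doubling of signal. The 3 comparisons with intact samples share the same intact arrays.

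Alveolar macrophages take up and break down surfactant, a film rich in phospholipid and cholesterol, and so live with a constant load of lipid. Cholesterol that the cell oxidises activates LXRα, which pairs with the retinoid X receptor and raises transcription of Abca1, Abcg1, Srebf1 and, through Srebf1 and directly, Fasn and Scd1. ABCA1 passes cholesterol to lipid-poor apolipoprotein A-I, ABCG1 to mature HDL, and loss of ABCG1 fills alveolar macrophages of mice with lipid. SCD1 turns stearate and palmitate into oleate and palmitoleate, the monounsaturated fatty acids of membranes and stored lipid, and type 2 alveolar cells use SCD1, FASN and SREBP-1 to build surfactant.

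LXRα and its partner bind direct repeats of a short hormone receptor half-site, and the sequences below are shown because they place a repeat of this kind in the promoters of 3 of the genes. RefSeq promoter windows of 300 bases, from 250 bases before to 50 after a transcription start, were at hand for 5 of the 9 genes (Abca1, Fasn, Srebf1, Nr1h3 and Cd36). The motif, the letters GGTTA, any 5 bases and then GGTCA, was spelled out after the windows had been read and was searched on both strands. It occurred in 16 of 32851 windows (0.0487%), belonging to 13 of 27025 genes, and 3 of those were Abca1, Fasn and Srebf1. Another was Acsl3, of the list of fatty acid synthesis genes read below, whose sequence is not shown. Because the motif was written with the windows known, its rarity is no independent evidence about these genes. The runs read 5′ to 3′ along the gene's own strand, which is the minus strand in all 3, and the capitals mark the match, which lies on the opposite strand, so that it starts with TGACC and ends with TAACC. Positions are those of GRCm38.p6.
Abca1, chr4:53159918-53159992, match 67 bases before the start: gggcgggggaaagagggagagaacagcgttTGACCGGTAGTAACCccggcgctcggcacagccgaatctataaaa
Fasn, chr11:120824728-120824797, match 225 bases before the start: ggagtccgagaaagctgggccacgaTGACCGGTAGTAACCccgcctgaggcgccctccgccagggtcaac
Srebf1, chr11:60210609-60210683, match 182 bases before the start: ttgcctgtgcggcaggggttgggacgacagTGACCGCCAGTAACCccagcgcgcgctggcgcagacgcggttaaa
The matched stretches of Abca1 and Fasn were letter for letter the same. The stricter repeat, AGGTCA repeated after any 4 bases, occurred in 5 windows (0.0152%), none of them of these genes. The E-box CACGTG, a motif of SREBP and other factors, occurred in 7.15% of windows and, among these 5 genes, in that of Abca1 only. A match describes letters in a window and says nothing of binding in these cells.

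Some arrays stood apart before any gene was read. Exon and intron control probe sets were told apart least well on the second arrays of days 1 and 7 and the first of day 3, where the area under the curve ran from 0.8094 to 0.8375 (0.8519 to 0.8879 elsewhere). These 3 are called weakly separating below. The labelling control dap exceeded 5 on the first array of day 3 and on replicates 2 and 3 of day 7. The intron controls give a background: their upper 95% limit lay between 5.014 and 5.685 on the 12 arrays. Of 18 measured alveolar macrophage markers, 17 exceeded it on every intact array, and the 2 brightest there, Chil3 and Plet1, averaged 11.61 ± 0.32 and 11.45 ± 0.07 (SD, n = 3). Markers of other cells were bright there too, such as Scgb1a1 of airway cells at 10.67 ± 0.66 and Retnlg of neutrophils at 10.63 ± 0.43. Retnlg averaged 11.53 ± 0.46, 11.77 ± 0.25 and 11.84 ± 0.23 at days 1, 3 and 7 (SD, n = 3 each). Among the 5990 probe sets above background on at least 3 arrays, the median difference of day 1 from intact was -0.21 and 73.9% lay below 0. After a further quantile normalization that median was -0.01, and without the weakly separating arrays it was also -0.01.

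Scd1 had the widest range of the 7 genes, and its signal was lowest 1 day after resection. Over the 12 arrays it spanned 3.29 log2 units, against 0.88 to 1.62 for the other 6. Abca1 was also lowest at day 1 while its means at days 3 and 7 were above that of intact samples. Abcg1, Nr1h3, Lpl, Cd36 and Fasn differed from intact samples by no more than 0.56, and none of the 7 passed limma's test after Benjamini-Hochberg adjustment over all probe sets in any comparison.

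**Figure D1:**
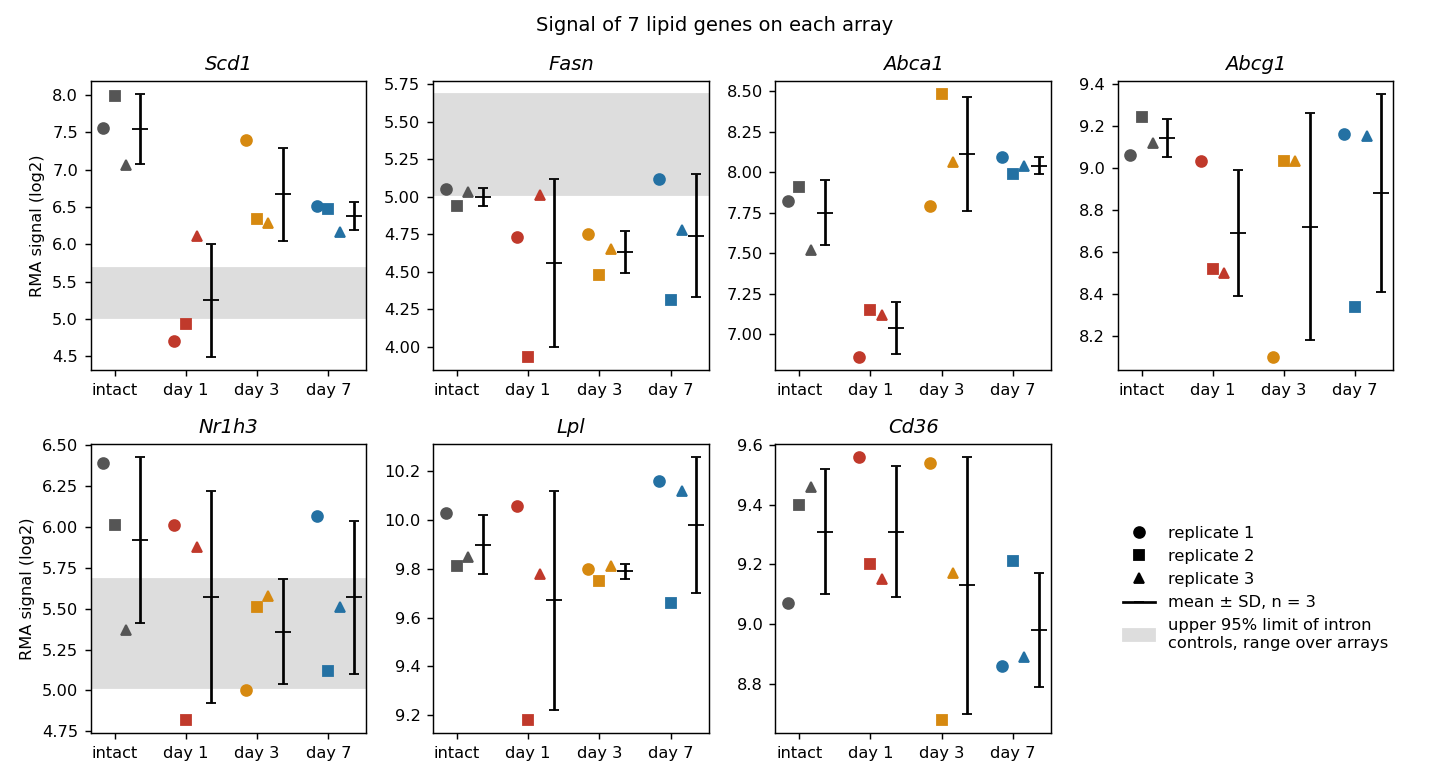
RMA signal (log2, vertical axis, a separate scale for every gene) of the 7 measured genes on the 12 arrays, from intact to day 7, with 1 symbol per replicate, the mean and SD of 3 arrays as a bar, and the range of the intron control limit in grey. Scd1 lies between 4.71 and 6.11 at day 1 and between 7.06 and 7.99 in intact samples, and the day 1 arrays of Abca1 lie below those of every other group.

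The desaturase Scd1 gave 7.56, 7.99 and 7.06 in intact samples, 4.71, 4.93 and 6.11 at day 1, 7.39, 6.34 and 6.29 at day 3, and 6.51, 6.47 and 6.16 at day 7 (replicates 1 to 3). All day 1 arrays lay below all intact arrays, and only replicate 3 of day 1 exceeded the intron limit of its array. Day 3 overlapped the intact group through replicate 1, a weakly separating array, and day 7 did not overlap it.

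At day 1 Scd1 averaged 5.25 ± 0.76, against 7.54 ± 0.47 in intact samples (SD, n = 3 each), a difference of -2.29 ± 0.38 (SE; 95% interval -3.12 to -1.45) and 4.88-fold lower. Its unadjusted p was 5.86e-05, the 7th smallest of 22206, and its limma adjusted p was 0.15. No probe set passed the adjusted threshold of 0.05 in this comparison (0% called), where 8.94% had an unadjusted p under 0.05 and the smallest adjusted p was 0.1. Only a bound on the Scd1 signal can be read from the 2 day 1 arrays under the intron limit, which makes the size of this difference coarse.

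Whether Scd1 passed at day 1 depended on the arrays that entered the fit. Without the 3 weakly separating arrays the difference of Scd1 at day 1 was -2.13 with an adjusted p of 0.0332 in limma, and with arrays weighted by their quality it was -2.17 with 0.0295. Leaving out day 1 replicate 3 gave -2.72 and 0.0277, and leaving out day 3 replicate 1 gave -2.29 and 0.0486. The first of these 2 settings keeps only the day 1 arrays under the intron limit, which give a bound. Over all alternatives the difference ran from -2.72 to -2.02 and the adjusted p from 0.0277 to 0.514.

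At day 3 Scd1 averaged 6.67 ± 0.62, against 7.54 ± 0.47 in intact samples (SD, n = 3 each), a difference of -0.87 (95% interval -1.7 to -0.03) with a limma adjusted p of 1. At day 7 it averaged 6.38 ± 0.19, and the difference from intact was -1.16 (95% interval -1.99 to -0.33), 2.23-fold lower, with an adjusted p of 0.639. The signal at both later days thus lay between those of day 1 and of intact samples. Day 3 minus day 1 was 1.42 (95% interval 0.59 to 2.26, adjusted p = 0.365) and day 7 minus day 1 was 1.13 (95% interval 0.29 to 1.96, adjusted p = 0.72), with no overlap of the arrays in either. Day 7 minus day 3 was -0.29 with an adjusted p of 1.

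Fasn, the enzyme that assembles palmitate, was close to background. It gave 5.05, 4.94 and 5.03 in intact samples, 4.73, 3.93 and 5.01 at day 1, 4.75, 4.48 and 4.65 at day 3, and 5.12, 4.31 and 4.78 at day 7. Its signal exceeded the intron limit on 1 of 12 arrays, so no fold is given. The differences of -0.45 at day 1, -0.38 at day 3 and -0.27 at day 7 each had an SE of 0.27 and a 95% interval that held 0, and the day 3 arrays alone lay wholly below the intact ones. Leaving out day 1 replicate 2 gave -0.13 at day 1, and leaving out day 7 replicate 2 gave -0.05 at day 7.

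The exporter Abca1 gave 7.82, 7.91 and 7.52 in intact samples, 6.86, 7.15 and 7.12 at day 1, 7.79, 8.48 and 8.06 at day 3, and 8.09, 7.99 and 8.04 at day 7. It was above the intron limit on all 12 arrays, and its spread within groups was small, with a residual SD of 0.22 against a median of 0.36 over the 5990 brighter probe sets. The highest day 1 array lay below the lowest array of each other group.

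Abca1 averaged 7.04 ± 0.16 at day 1, against 7.75 ± 0.2 in intact samples (SD, n = 3 each), a difference of -0.7 ± 0.19 (SE; 95% interval -1.12 to -0.28) and 1.63-fold lower, with an unadjusted p of 0.00319 and a limma adjusted p of 0.313. At day 3 it averaged 8.11 ± 0.35 and differed from intact by 0.36 (95% interval -0.05 to 0.78, adjusted p = 1), with overlapping arrays. At day 7 it averaged 8.04 ± 0.05 and differed by 0.29 (95% interval -0.13 to 0.71, adjusted p = 0.996), with all arrays above the intact ones. The differences of days 3 and 7 from day 1 were wider than any difference from intact samples. Among the brighter probe sets the median difference from day 1 was 0.18 at day 3 and 0.13 at day 7. After quantile normalization Abca1 differed from day 1 by 0.9 at day 3 and 0.85 at day 7.

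Day 3 exceeded day 1 by 1.07 for Abca1 (95% interval 0.65 to 1.49), 2.1-fold, with an unadjusted p of 0.000115, the 10th smallest in that comparison, and a limma adjusted p of 0.256. Day 7 exceeded day 1 by 0.99 (95% interval 0.58 to 1.41), 1.99-fold, with an unadjusted p of 0.000217, the 7th smallest, and an adjusted p of 0.573. No probe set was called in either comparison, while 9.6% and 6.74% had an unadjusted p under 0.05. In both, Scd1 and Abca1 were the genes of the 7 whose arrays were apart, all higher at the later day, beside 10.5% and 6.54% of the brighter probe sets. Between day 7 and day 3 none of the 7 was apart or called, where 5.12% of probe sets had an unadjusted p under 0.05 and none was called. Over all alternatives the difference of Abca1 at day 1 from intact ran from -0.82 to -0.52, with adjusted p from 0.119 to 0.874. Day 3 minus day 1 ran from 0.88 to 1.28, with adjusted p from 0.0617 to 0.814.

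limma's F test over the 4 groups asks whether a gene differed between any of them. It gave unadjusted p of 0.000434 for Abca1 and 0.00055 for Scd1, the 38th and 50th smallest, and an adjusted p of 0.232 for both, with 2 probe sets called in all (0.00901%) and 7.34% at an unadjusted p under 0.05. Without the weakly separating arrays both genes passed, at adjusted p of 0.031 for Abca1 and 0.046 for Scd1, and with array weights they passed at 0.0267 and 0.0215. The other 5 genes had adjusted p of 0.86 to 0.894 in this test.

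Abcg1, the exporter to HDL, gave 9.06, 9.24 and 9.12 in intact samples, 9.03, 8.52 and 8.5 at day 1, 8.1, 9.03 and 9.03 at day 3, and 9.16, 8.34 and 9.15 at day 7. The intact arrays lay close together, and in each resected group 1 or 2 arrays lay well below them. At day 1 it averaged 8.69 ± 0.3, against 9.14 ± 0.09 in intact samples (SD, n = 3 each), a difference of -0.45 ± 0.29 (SE; 95% interval -1.08 to 0.17) with a limma adjusted p of 0.641. At day 3 the difference was -0.42 (95% interval -1.04 to 0.2) and at day 7 -0.26 (95% interval -0.88 to 0.37). The low array of day 3 and that of day 7 were the weakly separating ones. Without those arrays the difference was -0.11 at day 3 and 0.01 at day 7, so both values rested on 1 array each. At day 7 it was also 0.02 without the arrays that carried the labelling control and 0.19 with that control as a covariate.

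Nr1h3, which encodes LXRα, gave 6.39, 6.01 and 5.37 in intact samples, 6.01, 4.82 and 5.88 at day 1, 5, 5.51 and 5.58 at day 3, and 6.07, 5.12 and 5.51 at day 7. It exceeded the intron limit on 9 of 12 arrays. The groups overlapped in every comparison with intact samples. Its residual SD of 0.5 stood beside a median of 0.36 over the brighter probe sets and was larger than that of 89.3% of all probe sets, dim ones included. The differences were -0.35 at day 1 (95% interval -1.12 to 0.42), -0.56 at day 3 (-1.33 to 0.21) and -0.35 at day 7 (-1.13 to 0.42). These intervals leave room for a halving of signal as well as for none.

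Lpl, the lipase that frees fatty acids from lipoprotein triglyceride, was bright on every array and varied little. It gave 10.03, 9.81 and 9.85 in intact samples, 10.06, 9.18 and 9.78 at day 1, 9.8, 9.75 and 9.81 at day 3, and 10.16, 9.66 and 10.12 at day 7. The lowest value came from day 1 replicate 2, a weakly separating array. The differences from intact were -0.23 at day 1 (95% interval -0.71 to 0.25), -0.11 at day 3 (-0.59 to 0.36) and 0.08 at day 7 (-0.4 to 0.56).

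Cd36, a scavenger receptor and fatty acid carrier, gave 9.07, 9.4 and 9.46 in intact samples, 9.56, 9.2 and 9.15 at day 1, 9.54, 8.68 and 9.17 at day 3, and 8.86, 9.21 and 8.89 at day 7. Its range of 0.88 was the smallest of the 7 genes. The day 1 mean of 9.31 ± 0.22 stood beside an intact mean of 9.31 ± 0.21 (SD, n = 3 each), and the 95% interval of the difference ran from -0.5 to 0.48. The differences were -0.18 at day 3 (-0.67 to 0.31) and -0.33 at day 7 (-0.82 to 0.16).

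**Figure D2:**
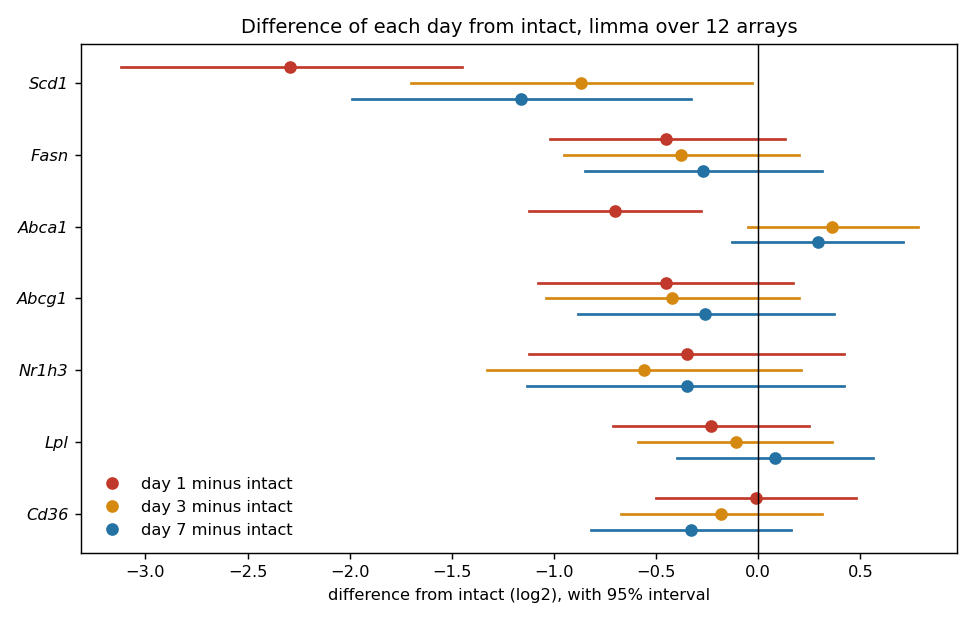
Difference of each day from intact (log2, horizontal axis) for the 7 genes, as limma's estimate (point) with its 95% interval (line), from 12 arrays. The intervals of Scd1 on all 3 days and that of Abca1 at day 1 leave out 0, before any adjustment for the number of probe sets, and the others hold it.

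Counted together, 7 of the 7 genes lay below intact at day 1, 6 at day 3 and 5 at day 7, with median differences of -0.45, -0.38 and -0.27. The measurements of Abca1 at days 3 and 7 and of Lpl at day 7 were on the other side. Over all probe sets the shares below 0 were 51.5, 49.7 and 51.7%, and among those above background 73.9, 54.5 and 60.9%. None of the 7 was called on any day, beside 0% of probe sets called at day 1, 0.0045% at day 3 and 0.018% at day 7. At an unadjusted p under 0.05 stood 2 of the 7 at day 1 (Scd1 and Abca1), 1 at day 3 and 1 at day 7 (Scd1), beside 8.94, 4.46 and 5.7% of all probe sets. The arrays did not overlap for 3 genes at day 1 (Scd1, Abca1 and Abcg1, lower), where 14.9% of the brighter probe sets were apart in that direction. They did not overlap for 3 genes at day 3 (Fasn, Abcg1 and Lpl, lower, beside 8.93% of the brighter and 6.68% of all probe sets) and for 2 at day 7 (Scd1 lower, 11.3%, and Abca1 higher, 5.61%). For Lpl the highest day 3 array and the lowest intact array both round to 9.81. Fasn was under the intron limits on all day 3 and intact arrays. The count below intact at day 1 was 6 after quantile normalization or median centring and 4 without the weakly separating arrays, and the day 7 count was 2 without the arrays that carried the labelling control. The day 1 median was -0.13 without the weakly separating arrays, -0.19 with array weights and -0.26 after quantile normalization. The day 7 median was -0.05 without the weakly separating arrays, 0.12 without the arrays that carried the labelling control and 0.08 with that control as a covariate.

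The wider lipid pathways were read from 5 lists that leave the 9 genes out, and no gene of them passed the adjusted threshold on any day. Fatty acid synthesis (31 of 34 genes measured) had 19, 14 and 22 genes lower at days 1, 3 and 7, with median differences of -0.2, 0.02 and -0.07. The day 1 median was -0.03 without the weakly separating arrays and -0.05 after quantile normalization, and the day 7 median was 0.03 without those arrays. Over the 19505 genes measured, 52.4, 49.8 and 52.7% were lower, with medians of -0.02, 0 and -0.01. At an unadjusted p under 0.05 this list had 3 genes lower at day 1, 1 at day 3 and 1 at day 7, and none higher. Over all probe sets 5.9, 2.5 and 3.74% were lower at that limit and 3.04, 1.96 and 1.95% higher. The 3 genes of day 1 were Elovl6, Fads2 and Gpam, all under the intron limits that day. The day 1 counts lower and higher were 0 and 2 for cholesterol synthesis, 1 and 1 for LXR and efflux, and 2 and 1 for uptake and storage.

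Elovl6, which lengthens palmitate to the stearate that SCD1 uses, averaged 3.97 ± 0.94 at day 1, against 5.28 ± 0.6 in intact samples (SD, n = 3 each), a difference of -1.31 ± 0.45 (SE) with a limma adjusted p of 0.431. Its day 1 arrays were all under the intron limits. Fads2, the desaturase of polyunsaturated fatty acids, averaged 3.49 at day 1 and 4.15 in intact samples, and Gpam, the first acyltransferase of glycerolipid synthesis, 3.1 at day 1 and 3.93 in intact samples. Both genes lay under the intron limits in all groups, so no difference is given.

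Cholesterol synthesis (18 of 24 genes measured) had 9, 11 and 8 genes lower at days 1, 3 and 7, with medians of 0, -0.05 and 0.06. Hmgcs1, which makes HMG-CoA, averaged 8.44 ± 0.21 at day 1, against 7.72 ± 0.42 in intact samples (SD, n = 3 each), a difference of 0.72 ± 0.33 (SE) with a limma adjusted p of 0.559. Nsdhl, a demethylating dehydrogenase of the late pathway, differed by -0.44. The kinase Mvk lay under the intron limits in all groups, with means of 3.25 to 3.89. Without the weakly separating arrays the median of this list at day 1 was 0.39, and after quantile normalization 0.17.

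The list of LXR partners, targets and cholesterol efflux genes (21 of 26 measured) had 15, 12 and 9 genes lower at days 1, 3 and 7, with medians of -0.21, -0.03 and 0.04, and without the weakly separating arrays these were 0.11, 0.11 and 0.21. After quantile normalization the day 1 median was -0.03. Mylip, an LXR target that marks the LDL receptor for degradation, had its lowest mean at day 1. It averaged 7.39 ± 0.13 in intact samples, 6.56 ± 0.15 at day 1, 7.38 ± 0.24 at day 3 and 7.44 ± 0.35 at day 7 (SD, n = 3 each). Its difference at day 1 was -0.83 ± 0.2 (SE) with an unadjusted p of 0.00136 and a limma adjusted p of 0.28. Scarb1, the HDL receptor SR-B1, lay on the other side at day 1, at 7.29 ± 0.34, against 6.6 ± 0.14 in intact samples (SD, n = 3 each), a difference of 0.69 ± 0.24 (SE, adjusted p = 0.431). Apoc1, an apolipoprotein, spanned 3.32 to 6.28 at day 3, against 3.24 to 3.84 in intact samples, where it was under the intron limits (adjusted p = 1 in limma).

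Lipid uptake and storage (26 of 27 genes measured) had 18, 14 and 14 genes lower at days 1, 3 and 7, with medians of -0.17, -0.04 and -0.01. The day 1 median was -0.02 without the weakly separating arrays and 0.01 after quantile normalization. Gpihbp1, which anchors lipoprotein lipase on capillary endothelium, averaged 3.56 ± 0.67 at day 1, against 4.89 ± 0.17 in intact samples (SD, n = 3 each), with a limma adjusted p of 0.243, and it was under the intron limits in all groups. Lpcat1, the surfactant lipid acyltransferase of type 2 cells, differed by -1.09 ± 0.29 at day 1 (adjusted p = 0.297). The day 1 mean of Lpcat1 lay under the intron limits. Gpihbp1 also stands among the markers of endothelium and Lpcat1 among those of type 2 cells. The scavenger receptor Marco differed by 0.11, -0.61 and 0.48 at days 1, 3 and 7, with SE of 0.31. Fatty acid oxidation (23 of 26 genes measured) had 13, 8 and 10 genes lower, with medians of -0.05, 0.07 and 0.01, and no gene at an unadjusted p under 0.05 on any day. Without the weakly separating arrays its day 1 median was 0.23, and after quantile normalization 0.13.

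**Figure D3:**
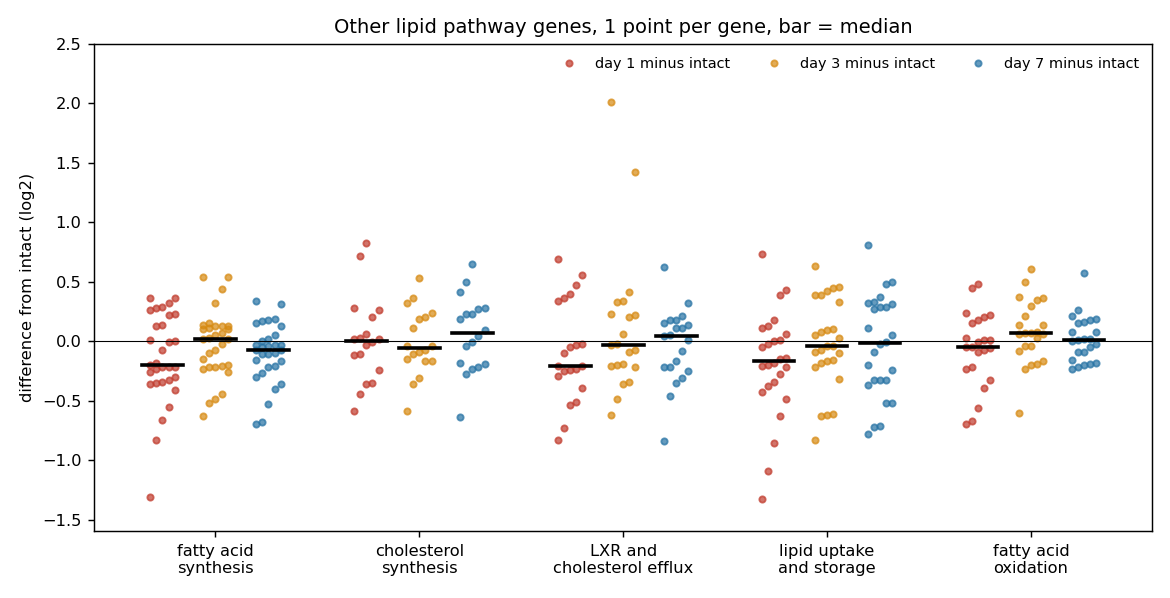
Difference from intact (log2, vertical axis) of the genes of 5 lipid pathway lists at days 1, 3 and 7, with 1 point per gene and a bar at each median. The medians lie between -0.21 and 0.07, and the point at 2.01 at day 3 is Apoe, which appears under the closing observations.

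The signals of lung tissue cell markers stand here beside those of Scd1. None of the markers of type 2, type 1, airway, endothelial or fibroblast and smooth muscle cells was called at day 1, nor was Scd1. In a bulk sample fewer cells of a type and less RNA per cell cannot be told apart. All 12 measured markers of type 2 alveolar cells lay below intact at days 1 and 7 and 11 of 12 at day 3, with medians of -1.34, -0.86 and -1.37, and without the weakly separating arrays the day 1 median was -0.91. Of them Sftpd, surfactant protein D, was called at day 7 in limma (adjusted p = 0.00965), at 2.54 ± 0.05, against 4.52 ± 0.37 in intact samples (SD, n = 3 each), both under the intron limits. Their mean signal was 6.29, 6.64 and 6.69 in intact samples, 5.41, 4.02 and 5.99 at day 1, 6.37, 5.31 and 5.42 at day 3, and 5.32, 5.41 and 5.08 at day 7. Their summed signal (log2 of the sum) spanned 11.42 to 11.94 in intact samples, 8.47 to 11.1 at day 1, 10.27 to 10.97 at day 3 and 9.97 to 10.64 at day 7. Day 3 replicate 1, which held the highest signal of Scd1 after resection, also held the highest mean of these markers after resection. Day 1 replicate 1, with the lowest signal of Scd1, had a marker mean close to those of day 7.

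Sftpc, the surfactant protein that defines type 2 cells, averaged 8.71 ± 2.14 at day 1, against 11.12 ± 0.27 in intact samples (SD, n = 3 each), so it was not absent from any group. Type 1 cell markers had medians of -0.62, -0.4 and -0.71 on days 1, 3 and 7, endothelial markers -1.45, -1.05 and -1.13, fibroblast and smooth muscle markers -1.23, -0.98 and -0.89, and airway markers -0.89, -0.68 and -1.19. Among the fibroblast and smooth muscle markers limma called Col3a1, a collagen chain, at day 3 (adjusted p = 0.0135), the 1 probe set called that day. At day 7 it called Col3a1 (adjusted p = 0.0249) and Dpt, the matrix protein dermatopontin (adjusted p = 0.0271), 2 of the 4 probe sets called. Sftpd, Col3a1 and Dpt were lower than in intact samples in these comparisons and were named after their values were seen. None of the 15 measured fibroblast and smooth muscle markers exceeded the intron limits on all 3 arrays of a resected group, against 3 in intact samples. In a fit of only the 5990 probe sets above background on at least 3 arrays, no probe set was called at day 3 or day 7. Neutrophil markers had medians of 1.03, 0.93 and 1.23. Alveolar macrophage markers had medians of -0.02, -0.2 and 0, and adipocyte markers, of interest because fat cells are rich in Scd1, 0.11, -0.07 and 0.17. Only 2 of the 10 measured adipocyte markers, Fabp4 and Cidec, exceeded the intron limits on all arrays. Both also stand among the alveolar macrophage markers, so the adipocyte medians say little about fat cells. Eosinophil markers, since eosinophils also carry Siglec-F, had medians of -0.3, -0.18 and 0.07, monocyte and interstitial macrophage markers -0.16, 0 and -0.03, dendritic cell markers -0.28, -0.24 and -0.17, T and NK cell markers -0.57, -0.74 and -0.44, and B cell markers -0.26, -0.29 and -0.27. In no group did more than 2 of 10 dendritic and 2 of 12 T and NK cell markers exceed the intron limits on all 3 arrays. None of the 6 B cell markers did, so the medians of these 3 lists come mostly from signal near background. Without the weakly separating arrays the day 1 median was -0.91 for endothelial, -0.05 for eosinophil, -0.03 for monocyte and interstitial macrophage and -0.17 for dendritic cell markers, and that of alveolar macrophage markers was 0.05. Siglecf differed from intact by -0.46, -0.25 and -0.06, with adjusted p of 0.547 or more. What part these cells have in the difference of Scd1 was not tested.

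**Figure D4:**
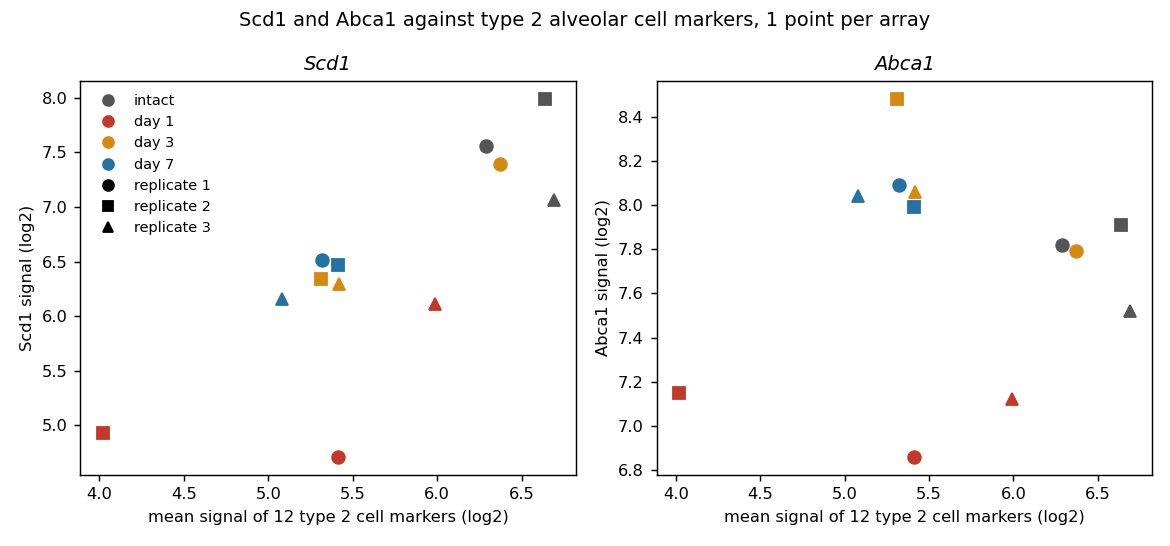
Signal of Scd1 (left, log2) and Abca1 (right, log2) against the mean signal of 12 type 2 alveolar cell markers (horizontal axis, log2), with 1 point per array, colour for the group and shape for the replicate. For Scd1 the intact arrays and day 3 replicate 1 lie at the upper right, while for Abca1 the day 1 arrays lie lowest at marker means of 4.02 to 5.99.

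Some genes ran alongside the 7 over the 12 arrays, taken from 5122 genes with a mean signal of at least 5. The correlations describe these arrays, which share hybridisation and normalization, and carry no test. The 2 genes most alike Scd1 were Arrb1, a β-arrestin, and 9930111J21Rik2, both with Pearson's r of 0.91. For Abca1 they were Cd84, a receptor of the SLAM family, at 0.89 and the transcription factor subunit Fosb at 0.84. For Abcg1 they were Frmd8 at 0.96 and Vav2 at 0.93, for Lpl Rora at 0.95 and Ipo9 at 0.94, for Fasn Nupr1 at 0.96 and Ube2l6 at 0.95, for Nr1h3 Hspe1 at 0.93 and Smpdl3b at 0.91, and for Cd36 Cp and Qk at 0.79. The 7 genes themselves were left out of that search, as were symbols that start with Gm and a digit or end in Rik.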

How the data were processed

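RNA of 12 samples was measured on Clariom S mouse arrays. The authors deposited RMA signals on the log2 scale, computed, per the labels' protocols, with the Transcriptome Analysis Console. The genome build is not given in the sources used here. Gene symbols came from the platform's probe annotation. Of 28846 probe sets, 6640 controls served only to describe the arrays, and 22206 were tested (19572 with 1 symbol, 2634 with none).

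In limma 3.58.1 under R 4.3.3 a linear model with the group as its only term was fitted to all 12 arrays (8 residual degrees of freedom), with empirical Bayes moderation, two-sided contrasts and Benjamini-Hochberg adjustment over all probe sets at 0.05. An exact permutation test of 3 against 3 arrays cannot give a p below 0.1, so p-values rest on the pooled spread. The procedure was tested on simulated data. The genes and lists, the limits of 0.84 and 5 for array controls and the alternatives were chosen with earlier results of these data known. Named were all 9 genes, the 3 genes of each pathway list with the smallest F test p and the 2 genes most correlated with each of the 7. The 2 brightest intact markers of each list were also named, and only a part of them is printed. Promoters are RefSeq's, on GRCm38.p6. Alternatives covered moderation, dim probe sets, normalization, groups in the fit, the replicate number, array quality, the labelling control, probe sets per gene, the threshold and each array left out.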

Additional observations from a re-analysis of the deposited data

How the results depend on the processing

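The 42 differences of the 7 genes were recomputed in 25 other settings, 1044 values in all. Of these 992 kept direction and side of the threshold, 4 passed it (Scd1 at day 1) and 48 turned sign, none with an adjusted p under 0.05. Many of the 1044 values could not turn sign. Moderation, the dim filter, the fit of 2 groups, the replicate block, the choice of probe sets and the threshold leave the estimate as it is. An array left out changes no estimate in comparisons without its group. The share that kept direction is therefore no measure of stability. The dim filter removed Fasn. The number of the 7 genes called at day 1 was 1 with array weights and without the 3 weakly separating arrays, and 0 to 1 with each array left out. The number called by the F test was 2 in those first 2 settings. Sign turns included differences that were -0.35 in the main fit (Nr1h3 at days 1 and 7), -0.27 (Fasn at day 7) and -0.26 (Abcg1 at day 7). The cause of the turns was not tested. After quantile normalization Cd36 at day 1 was 0.13, and day 3 minus day 1 was -0.05 for Fasn, -0.09 for Abcg1 and -0.01 for Lpl. After median centring Cd36 at day 1 was 0.02. With array weights day 3 minus day 1 was -0.2 for Fasn and -0.07 for Lpl, and day 7 minus day 1 was -0.03 for Fasn. Without the weakly separating arrays, day 1 was 0.02 for Nr1h3, 0.02 for Lpl and 0.05 for Cd36, day 7 was 0.01 for Abcg1, day 3 minus day 1 was -0.3 for Fasn and -0.14 for Lpl, and day 7 minus day 3 was 0.02 for Scd1. Without the arrays with the labelling control, day 7 was 0.12 for Fasn, 0.02 for Abcg1 and 0.15 for Nr1h3, and day 7 minus day 3 was 0.2 for Scd1. With that control as a covariate, day 7 was 0.19 for Abcg1 and 0.08 for Nr1h3, day 3 minus day 1 was 0.01 for Nr1h3 and day 7 minus day 3 was 0.02 for Abca1.

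With each array left out in turn, day 1 minus intact ran from -0.63 to 0.02 for Nr1h3, from -0.42 to 0.02 for Lpl and from -0.13 to 0.07 for Cd36. For Fasn it ran from -0.67 to -0.13, and at day 7 from -0.46 to -0.05. Day 3 minus intact ran from -0.39 to 0.04 for Cd36 and from -0.58 to -0.11 for Abcg1, and day 7 minus intact from -0.01 to 0.24 for Lpl and from -0.39 to 0.01 for Abcg1. Day 3 minus day 1 ran from -0.58 to 0.01 for Nr1h3, -0.24 to 0.3 for Fasn, -0.12 to 0.35 for Abcg1, -0.13 to 0.31 for Lpl and -0.38 to 0.05 for Cd36. Day 7 minus day 1 ran from -0.13 to 0.4 for Fasn. Day 7 minus day 3 ran from -0.49 to 0.07 for Scd1, -0.15 to 0.43 for Abcg1, -0.37 to 0.06 for Cd36, -0.23 to 0.11 for Abca1, -0.09 to 0.32 for Fasn and -0.04 to 0.43 for Nr1h3.

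Of 18 correlations between deviations of same-numbered arrays, -0.25 to 0.25, 3 exceeded 0.1. These values show no common pairing by replicate number but, with 3 arrays per group, cannot exclude one. With the replicate block none of the 7 genes was called, Scd1 at day 1 had an adjusted p of 0.215 and Abca1 0.356, and the probe sets called at day 7 numbered 8, against 4. Array weights gave 43, 298 and 402 probe sets at days 1, 3 and 7. Fasn and Nr1h3 are limited by signal near background, and 3 arrays per group limit all values.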

Other observations

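These genes were picked after their values were seen. Apoe, the apolipoprotein that carries cholesterol out of macrophages and is an LXR target, averaged 8.8 ± 0.32 in intact samples, 9.27 ± 0.22 at day 1, 10.81 ± 1.93 at day 3 and 9.12 ± 0.06 at day 7 (SD, n = 3 each). At day 3 its arrays spanned 8.61 to 12.22, against 8.5 to 9.13 in intact samples, and the difference of 2.01 had an unadjusted p of 0.0097 in limma and did not pass after adjustment. Sqle, the epoxidase of cholesterol synthesis, averaged 4.72 ± 0.55 at day 1, against 3.88 ± 0.47 in intact samples (SD, n = 3 each), near background. The stearoyl-CoA desaturase genes Scd3 and Scd4 had group means of 2.25 to 2.42 and 2.33 to 2.88, both under the intron limits.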
